A study of Mus musculus with 20 samples.

Results

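MicroRNAs were compared between cortical neurons that lacked the circular RNA ciRS-7 and wild-type neurons after oxygen-glucose deprivation (OGD), a culture model of ischaemia. The comparison holds 10 of the 20 libraries of the study, 5 knockout and 5 wild type, chosen by genotype and treatment as labelled, and all 1481 entries of the table that pairs these groups. Neurons came from cortices of mouse embryos at embryonic day 15 and were cultured for 7 days. The label of every sample, wild type included, gives the strain as C57BL/6N-Cdr1asem1Nikr, with the genotype as WT or KO, so the knockout rests on 1 edited allele. Both OGD groups then spent 12 h at 37 °C in 1% O2 and 5% CO2 in medium to which no glucose or pyruvate had been added. The normoxic groups of the same genotypes (5 libraries each), kept at 37 °C and 5% CO2 in medium with glucose and pyruvate, are used here for the test of interaction and for levels set beside the OGD values. The design names 5 biological replicates per group, and the labels do not tie a culture to an animal.

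ciRS-7, also called Cdr1as, is a circular RNA that is abundant in neurons and carries many binding sites for miR-7, together with a site for miR-671 that is nearly fully complementary. miR-671 can direct the slicing of ciRS-7, while miR-7 binds it without cutting it. Loss of ciRS-7 in mouse brain is known for a lower level of mature miR-7. A miRNA finds its targets mainly through its seed, bases 2 to 8 from the 5′ end. The hairpin precursor gives a 5p and a 3p strand, and usually one of them, the guide, is retained while the other, the passenger, is degraded.

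The sequences of miR-7 and miR-671 strands are given first, since miR-7a-5p and miR-7b-5p share a seed and their levels are compared below. Mature sequences are from RefSeq (GRCm38.p6), which matched 1248 of the 1481 entries by name; the seed is in capitals.
miR-7a-5p: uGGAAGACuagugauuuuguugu
miR-7b-5p: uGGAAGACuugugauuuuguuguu
miR-7a-1-3p: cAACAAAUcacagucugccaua
miR-671-5p: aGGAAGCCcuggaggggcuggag
miR-671-3p: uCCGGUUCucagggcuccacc
Over 23 compared bases, miR-7b-5p differs from miR-7a-5p by 1 substitution (A10U, counted from 1 at the 5′ end of miR-7a-5p). Mature miR-7a-5p can come from 2 loci, chr13:58392841-58392863 (minus strand), in an intron of Hnrnpk, and chr7:78888295-78888317 (plus strand), outside annotated host genes in GENCODE M21. The miR-7a-1-3p strand belongs to the chromosome 13 hairpin. miR-7b-5p lies at chr17:56243017-56243040 (plus strand) with no annotated host, and miR-671-5p at chr5:24592132-24592154 (plus strand), over an exon of Chpf2.

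Reads were recovered from the deposited values and scaled to CPM with the authors' library factors. Totals ran from 1811589 to 3119212 reads in the knockout and from 1160582 to 4374002 in the wild type, and 1023 to 1225 entries had a read. The 3-read floor lay between 0.737 CPM in the deepest OGD library and 2.55 CPM in the shallowest; it covers counting error only. The labelled cell type was checked against 9 neuron-enriched miRNAs, which summed to 320145 to 387344 CPM in knockout and 323093 to 389312 CPM in wild-type libraries. Their members miR-9-5p, miR-9-3p and miR-128-3p are among the most abundant entries. miR-9-5p alone made up most of the sums, with means of 274360 CPM in knockout and 261510 CPM in wild type. miR-124-3p averaged 5399 and 5628 CPM. Among defining markers of other cells, miR-223-3p, of myeloid cells, had at most 2 reads in any OGD library, miR-451a, of red blood cells, at most 5 and miR-142a-3p, of blood cells and microglia, at most 9. Of the oligodendrocyte miRNAs, miR-219a-5p had at most 4 reads, miR-219a-2-3p 19, miR-338-3p 32 and miR-338-5p 208. miR-126a-3p, of endothelium, reached 1469 reads and miR-146a-5p, of immune cells, 841. The first principal component of 451 entries held 40.2% of the variance and set knockout replicates 1 to 4 and wild-type replicate 1 (-5.53 to -1.63) apart from knockout replicate 5 (4.32) and wild-type replicates 2 to 5 (1.11 to 5.78). Knockout replicate 5 was the shallowest knockout library, and wild-type replicate 1 the deepest of all 10; the part of depth in the results below was not tested beyond the fit with depth as a covariate and the thinning of all libraries to 1160582 reads.

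The comparison asked which miRNAs depend on ciRS-7 in neurons under OGD. Of the 451 more abundant entries defined below, miR-7a-5p had the lowest p and was 1.31-fold lower in knockout. It is a guide strand of miR-7, as is miR-7b-5p. The latter has the same seed and differed by only -0.10 (log2, limma p 0.343). None of all 1481 entries passed the adjusted threshold. In the limma fit, 0 of 1481 entries had a Benjamini-Hochberg adjusted p under 0.05 (0%), also with limma voom. At an unadjusted p under 0.05 there were 108 entries (7.29%), 29 higher and 79 lower in knockout. Centring each library on its median moved the differences by 0.08 (log2) and turned this split to 65 higher and 57 lower, so the excess of lower entries depended on the scaling. Quantile normalization gave 51 and 51. Among the 451 entries whose mean log2(CPM + 0.5) reached 3, the median difference was -0.01; 18 were higher (3.99%) and 41 lower (9.09%) at an unadjusted p under 0.05. The 5 knockout and 5 wild-type values did not overlap for 4 of the 451 (0.887%). Because no adjusted p passed in the fit of all 10 libraries, the named miRNAs below are given by their values and unadjusted p; no call is made unless stated.

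**Figure D1:**
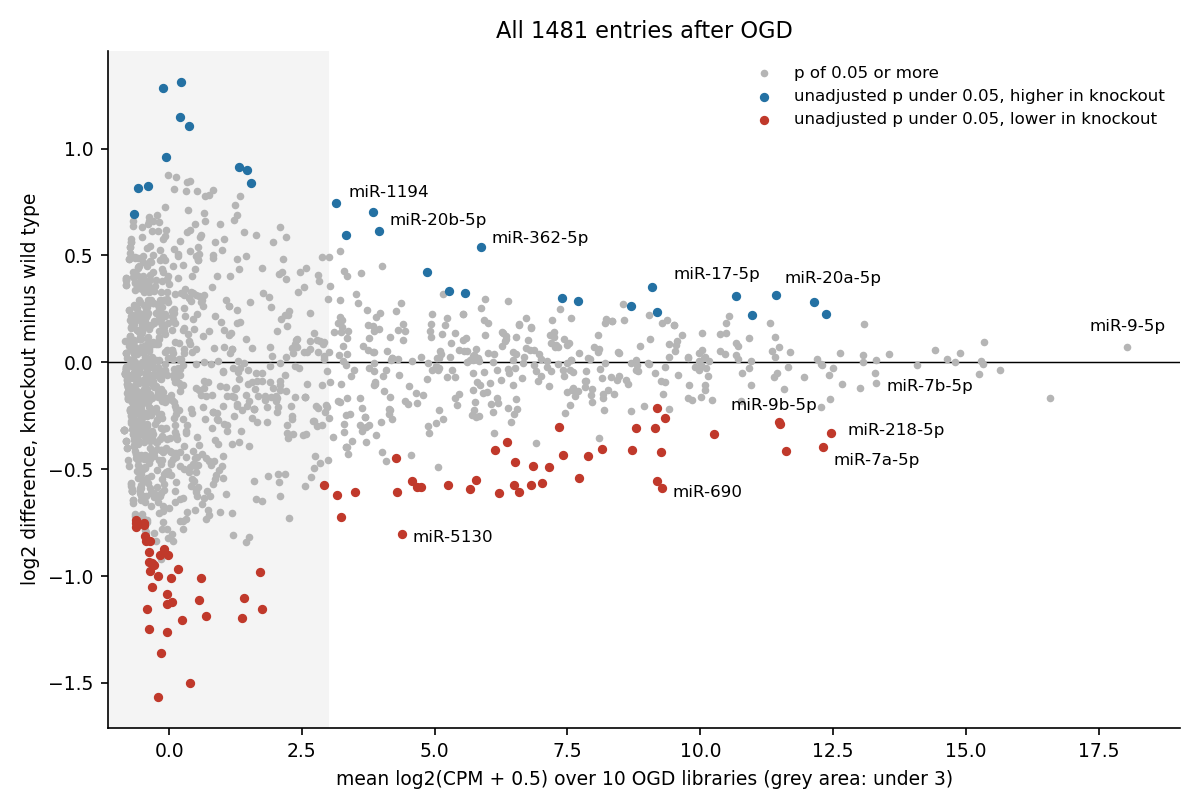
Difference between knockout and wild type after OGD (y axis, log2) against mean level (x axis, log2(CPM + 0.5)) for all 1481 entries, each a point; coloured points had an unadjusted limma p under 0.05. miR-7a-5p lies at -0.39 and miR-362-5p at 0.54, and none of the points passed the adjusted threshold.

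miR-7a-5p measured 4700.3, 4344, 3661, 4548 and 5002 CPM in knockout replicates 1 to 5 after OGD. In the wild type it measured 5397, 5964, 6096, 6929 and 4905 CPM. Knockout replicates 1 to 4 lay under every wild-type library, and the groups overlapped only in that knockout replicate 5 exceeded wild-type replicate 5. The means were 4451 ± 503 CPM in knockout and 5858 ± 764 CPM in wild type (SD, n = 5 each), a log2 difference of -0.39 (SE 0.099, 95% interval -0.60 to -0.19), with a limma p of 3.7e-04 and an adjusted p of 0.272 over all entries. An exact two-sided permutation test of this value alone gave p = 0.0159, where 252 regroupings allow no less than 0.0079. Without knockout replicate 5, the knockout library that overlapped the wild type, the difference was -0.44 and the limma adjusted p 0.0142. With median centring as well, the adjusted p did not pass the threshold. Over all alternatives tried, the adjusted p ran from 0.00718 to 0.756. Since a lower miR-7 in this knockout was known from earlier results of these data, the p is no independent support.

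The same guide was also lower in knockout in normoxia, where it measured 1773 to 3282 CPM in knockout and 2980 to 4387 CPM in wild type. That difference was -0.62 (SE 0.15; limma p 0.0013, adjusted p 0.838). The difference after OGD minus that in normoxia was 0.23 (SE 0.19, limma interaction p 0.238, adjusted p 0.99), so a change of the genotype difference with OGD was not shown. After OGD, knockout replicates 2 and 3 lay within the normoxic wild-type range of miR-7a-5p and the other 3 above it.

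**Figure D2:**
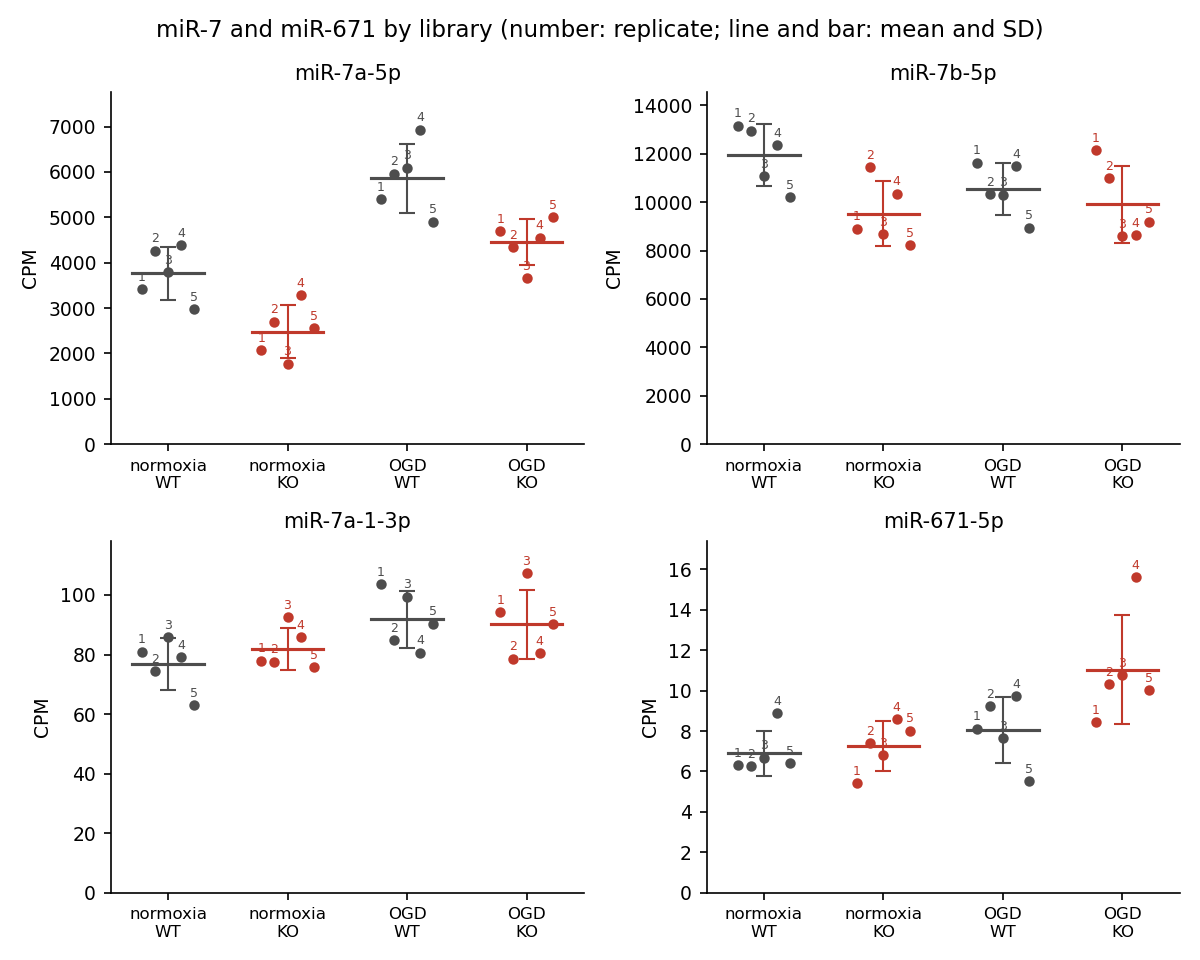
Levels of miR-7a-5p, miR-7b-5p, miR-7a-1-3p and miR-671-5p (y axes, CPM) in each library of the 4 groups (x axes), with means and SD; numbers are replicates. For miR-7a-5p the knockout mean lies lower in both conditions (4451 against 5858 CPM after OGD) with some overlap of libraries, while miR-7a-1-3p overlaps fully.

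miR-7b-5p, with the same seed, was the more abundant of the pair. It measured 12149, 10995, 8591, 8627 and 9187 CPM in knockout and 11628, 10316, 10307, 11478 and 8950 CPM in wild-type replicates 1 to 5 after OGD. The groups overlapped throughout, and the highest single value was in knockout. Its log2 difference was -0.10 (SE 0.10, limma p 0.343; 95% interval -0.30 to 0.11). In normoxia it was -0.33 (SE 0.11, p 0.00788), and the interaction p was 0.134.

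The passenger strands of the miR-7a hairpins overlapped between the genotypes. miR-7a-1-3p measured 78.6 to 107 CPM in knockout and 80.7 to 104 CPM in wild type, a difference of -0.03 (SE 0.13, 95% interval -0.30 to 0.25, limma p 0.838). For miR-7a-2-3p, from the chromosome 7 hairpin, the difference was 0.10 (SE 0.17, p 0.539). miR-7b-3p had 0 to 4 reads in each OGD library, too few to compare.

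Ratios within a library do not depend on how libraries are scaled. miR-7a-5p amounted to 38.7% to 54.4% of miR-7b-5p in knockout (median 42.6%) and 46.4% to 60.4% in wild type (median 57.8%) after OGD. The log2 ratio was -1.15 ± 0.23 in knockout and -0.85 ± 0.15 in wild type (SD, n = 5), a difference of -0.30 (exact permutation p 0.0556, 0.0952 after adjustment over 6 ratios tested). In normoxia the difference in this ratio was nearly the same, -0.29 (exact permutation p 0.0794). There were 34.1 to 56.5 miR-7a-5p reads per miR-7a-1-3p read in knockout and 52.0 to 85.9 in wild type after OGD, a log2 difference of -0.37 (exact permutation p 0.0794, adjusted 0.0952). In normoxia the same guide-to-passenger ratio was 19.1 to 38.2 in knockout and 42.2 to 57.3 in wild type, with no overlap (difference -0.72, exact permutation p 0.0079, the smallest possible; adjusted 0.0476). The groups thus stood apart for this ratio in normoxia, while after OGD the replicates overlapped; the difference between the conditions was not tested. miR-7a-5p can come from both miR-7a hairpins, and miR-7a-1-3p from the chromosome 13 hairpin only. The ratio is therefore not that within a single hairpin, and a ratio to miR-7a-2-3p is not given.

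miR-671-5p, the strand that is complementary to ciRS-7, was rare. It measured 8.45, 10.3, 10.8, 15.6 and 10.03 CPM in knockout and 8.11, 9.24, 7.65, 9.74 and 5.52 CPM in wild-type replicates 1 to 5, from 9 to 45 reads per library. In 4 of 5 knockout libraries it was above all wild-type libraries, and replicate 1 lay within them. The log2 difference was 0.43 (SE 0.24, limma p 0.0905, adjusted p 0.704). The other strand, miR-671-3p, differed by 0.28 (SE 0.23, p 0.224), at 9.43 to 15.97 CPM in knockout and 8.84 to 13.1 CPM in wild type. Of the 7 miRNAs of the ciRS-7 network list, 1 had an unadjusted p under 0.05, miR-7a-5p, against 7.29% of all entries; the median difference of the 6 with a mean log2 level of at least 3 was 0.04, beside -0.01 over all such entries.

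Entries higher in knockout were likewise ranked at a mean log2 level of at least 3. The lowest p there belonged to miR-362-5p, miR-1194, miR-17-5p, miR-20a-5p and miR-20b-5p. miR-362-5p, from an intron of Clcn5 on the X chromosome, measured 58.7 to 83.0 CPM in knockout (median 70.9) and 40.8 to 63.2 CPM in wild type (median 43.7). Knockout replicate 4 and wild-type replicate 1 were the pair that overlapped. The log2 difference was 0.54 (SE 0.15, limma p 0.00139, adjusted p 0.41). Its opposite strand miR-362-3p differed by 0.13 (p 0.319), and the other 5 abundant miRNAs of that cluster by 0.21 (miR-500-3p), 0.09 (miR-532-5p), 0.06 (miR-501-3p), 0.02 (miR-188-5p) and 0.00 (miR-532-3p). All 7 members of the Clcn5 cluster with a mean log2 level of at least 3 had a difference above 0, from 0.00 to 0.54, as did 214 of all 451 such entries. An unadjusted p under 0.05 was found for 1 of 10 listed members in the table, against 7.29% of all entries.

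miR-1194 was 1 of the 4 entries among the 451 abundant ones whose groups did not overlap. It measured 12.4, 9.45, 12.0, 9.72 and 11.1 CPM in knockout and 5.90, 7.63, 5.95, 5.56 and 6.53 CPM in wild type, from 7 to 38 reads per library. All knockout libraries were therefore above all wild-type libraries. The log2 difference was 0.75 (SE 0.24, limma p 0.00377, adjusted p 0.41). In normoxia the groups overlapped at 2.83 to 5.48 CPM, with a difference of -0.18, and the interaction was 0.93 (SE 0.27, limma p 0.00174, adjusted p 0.577).

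Of the 10 entries named as higher, miR-17-5p, miR-20a-5p and miR-20b-5p share a seed. The 6 entries with that seed are printed because it had the highest median among the 13 seed families with at least 3 members at a mean log2 level of 3; the family was noticed after its values were seen, so its values are a description with no test.
miR-17-5p: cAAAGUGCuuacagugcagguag
miR-20a-5p: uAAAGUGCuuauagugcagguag
miR-20b-5p: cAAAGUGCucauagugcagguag
miR-93-5p: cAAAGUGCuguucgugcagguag
miR-106a-5p: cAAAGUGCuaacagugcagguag
miR-106b-5p: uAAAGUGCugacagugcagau
They come from 3 clusters. miR-17-5p (chr14:115043684-115043706) and miR-20a-5p (chr14:115044183-115044205) lie in Mir17hg, a noncoding host RNA. miR-20b-5p (chrX:52742159-52742181) and miR-106a-5p (chrX:52742541-52742563) share a cluster on the X chromosome, and miR-93-5p (chr5:138165574-138165596) and miR-106b-5p (chr5:138165787-138165807) lie within Mcm7, which encodes a subunit of the replicative helicase. From miR-17-5p, miR-106a-5p differs by U10A alone and miR-20b-5p by U10C and C12U, counted from the 5′ end of miR-17-5p. How reads that fit several of these were divided is not given in the sources used here, so their single levels are uncertain.

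miR-17-5p measured 1696, 1776, 2234, 1774 and 1666 CPM in knockout and 1821, 1396, 1351, 1507 and 1301 CPM in wild type. Wild-type replicate 1 was the 1 wild-type library inside the knockout range. The difference was 0.31 (SE 0.10, limma p 0.00482, adjusted p 0.41). miR-20a-5p, at 2754 to 4076 CPM in knockout and 2147 to 2956 CPM in wild type, gave 0.31 (SE 0.11, p 0.00652). miR-20b-5p, at 13.9 to 23.9 and 9.04 to 15.2 CPM, gave 0.61 (SE 0.22, p 0.00795). Wild-type replicate 1 again overlapped the knockout in both, as did wild-type replicate 3 for miR-20b-5p. For miR-93-5p the difference was 0.22 (p 0.036), for miR-106a-5p 0.14 (p 0.548) and for miR-106b-5p -0.05 (p 0.663); the median of the 6 was 0.27. In normoxia the differences of miR-17-5p, miR-20a-5p and miR-20b-5p were 0.05, 0.00 and 0.00. The interaction had a limma p of 0.22, 0.152 and 0.0334, with an adjusted p of 0.97 for the last.

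**Figure D3:**
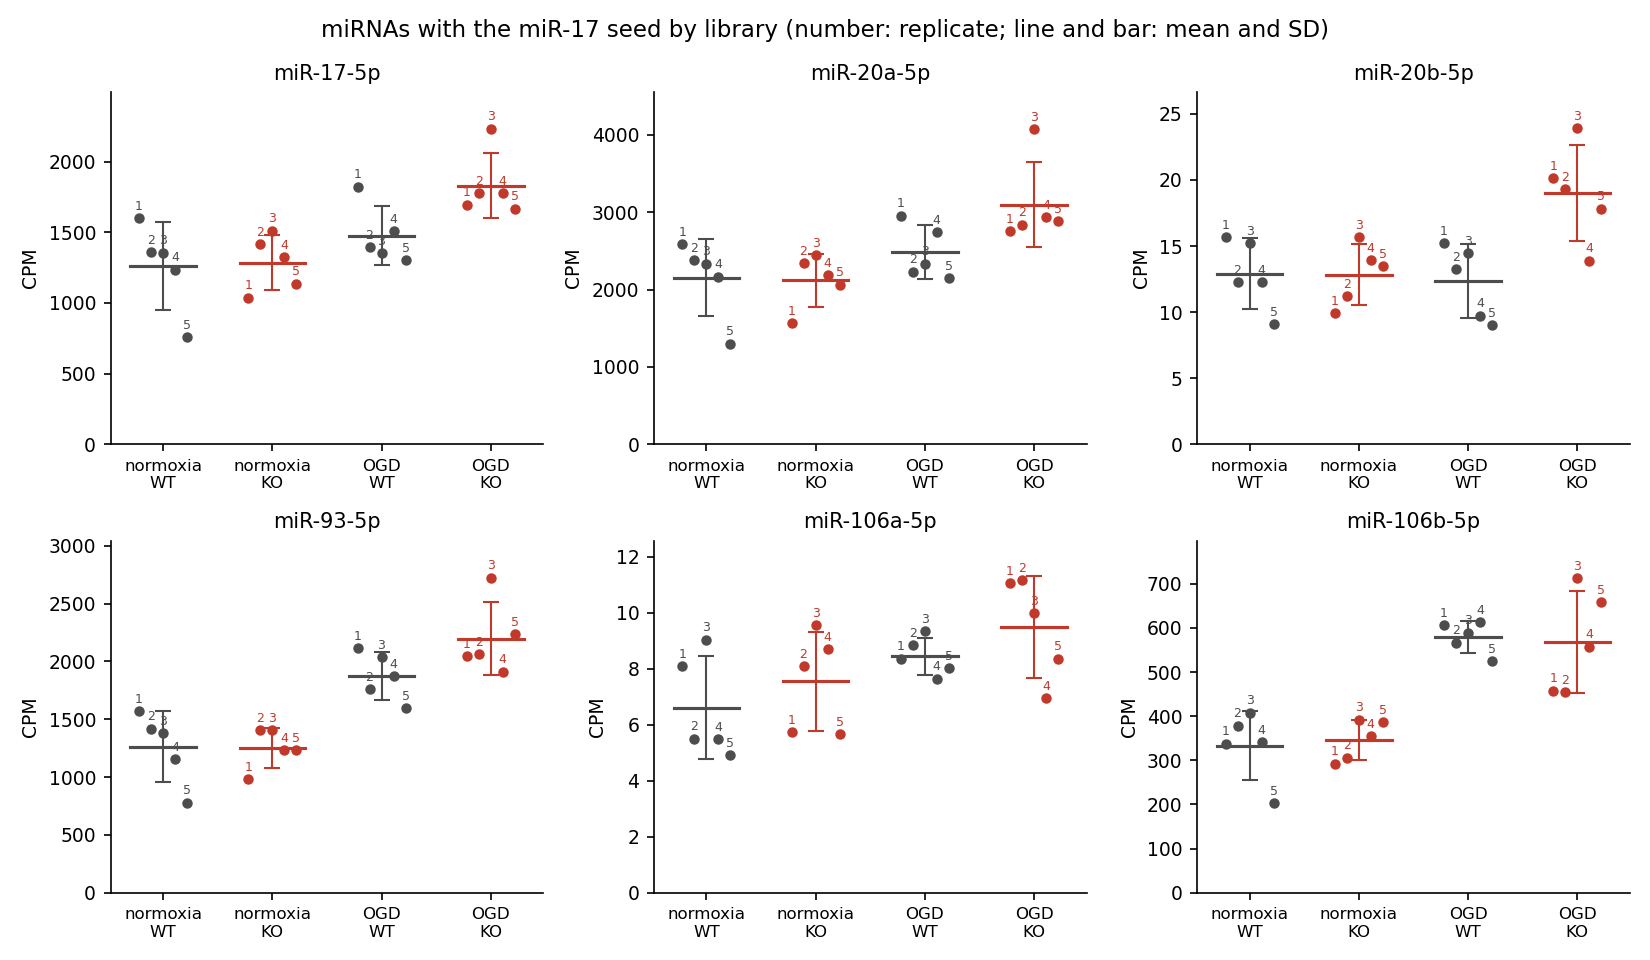
Levels of the 6 miRNAs with the seed of miR-17-5p (y axes, CPM) in each library of the 4 groups (x axes), with means and SD; numbers are replicates. miR-20b-5p ran from 13.9 to 23.9 CPM in knockout after OGD, against 9.04 to 15.2 CPM in wild type, and miR-106b-5p overlapped throughout.

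The other miRNAs of Mir17hg with a mean log2 level of at least 3 had differences from -0.06 to 0.35. miR-19b-3p, of another seed, differed by 0.35 (SE 0.17, limma p 0.0419), miR-18a-5p by 0.20 (p 0.207), miR-19a-3p by 0.18 (p 0.35) and miR-92a-3p by 0.07 (p 0.637). The passenger strand miR-17-3p differed by -0.06 (p 0.751). Among the other 12 seed families, the 6 members of the miR-15 and miR-16 seed had differences from 0.09 to 0.18, and the 9 of the let-7 seed from -0.03 to 0.05. The remaining entries named as higher were let-7j (0.28), miR-30c-5p (0.23), miR-26a-2-3p (0.70), miR-124-5p (0.30) and miR-337-3p (0.60), with limma p from 0.016 to 0.0258. miR-26a-2-3p, at 10.03 to 26.2 CPM in knockout and 4.25 to 16.1 CPM in wild type, overlapped between the groups, and its difference was 0.39 (p 0.132) without wild-type replicate 3. let-7j measured 3651 to 5716 CPM in knockout and 3570 to 4821 CPM in wild type, and knockout replicates 4 and 5 lay within the wild-type range. Its sequence is close to that of let-7i-5p, which averaged 50669 CPM in knockout and 51782 CPM in wild type. Whether reads of let-7i-5p are counted as let-7j was not tested. miR-124-5p, the passenger strand of the neuronal miR-124 hairpins, measured 159 to 221 CPM in knockout and 128 to 192 CPM in wild type; the guide miR-124-3p differed by -0.06 (p 0.514).

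Entries lower in knockout were ranked at a mean log2 level of at least 3. After miR-7a-5p, the lowest p there belonged to miR-690, miR-5130, miR-9b-5p, miR-3473a and miR-132-5p. miR-690, in an intron of Fgf12 at chr16:28599940-28599961 (minus strand), measured 398, 421, 461, 534 and 789 CPM in knockout and 611, 675, 1069, 627 and 912 CPM in wild type. Knockout replicates 1 to 4 lay under every wild-type library and replicate 5 within them. The difference was -0.59 (SE 0.15, limma p 5.5e-04, adjusted p 0.272).

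miR-9b-5p had non-overlapping groups, at 2368, 2817, 2616, 2833 and 2573 CPM in knockout and 3189, 3160, 2859, 3292 and 3667 CPM in wild type. The difference was -0.29 (SE 0.09, limma p 0.00301, adjusted p 0.41). Its sequence is shown beside that of miR-9-5p, the most abundant entry and a regulator of neuronal differentiation, because they are close.
miR-9-5p: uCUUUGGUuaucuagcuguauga
miR-9b-5p: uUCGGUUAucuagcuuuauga
Set from base 3 of miR-9-5p, miR-9b-5p differs at 2 of 21 bases (U5C and G18U, counted from the 5′ end of miR-9-5p). It is annotated on the strand opposite to miR-9 hairpins, at chr3:88215650-88215670 and chr7:79505316-79505336 (minus strand). Its reads amounted to 0.833% to 1.2% of those of miR-9-5p in knockout and 1.04% to 1.48% in wild type, so this ratio overlapped between the groups (difference -0.36 on the log2 scale, exact permutation p 0.0238, adjusted 0.0714 over the 6 ratios). In normoxia the ratio differed by -0.01 (exact permutation p 0.96). miR-9-5p itself differed by 0.07 (limma p 0.454). Whether reads of miR-9-5p are counted as miR-9b-5p was not tested.

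miR-132-5p comes from a hairpin known for its induction by neuronal activity. It measured 215, 244, 309, 231 and 238 CPM in knockout and 282, 288, 297, 464 and 325 CPM in wild type. Knockout replicate 3 was the 1 knockout library within the wild-type range. The difference was -0.41 (SE 0.13, limma p 0.00392, adjusted p 0.41). The other strand, miR-132-3p, was the more abundant and differed by -0.07 (p 0.634), and miR-212-5p, of the neighbouring hairpin, by 0.06 (p 0.707). Of the 5 activity-regulated miRNAs listed, 1 had an unadjusted p under 0.05, against 7.29% of all entries, and their median was -0.17, beside -0.01 over the abundant entries.

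miR-218-5p, enriched in neurons and held in introns of Slit2 and Slit3, measured 4021 to 6329 CPM in knockout (median 4982) and 5121 to 7277 CPM in wild type (median 6938). Its difference was -0.33 (SE 0.11, limma p 0.00594, adjusted p 0.41). It was the 1 of 9 neuron-enriched miRNAs with an unadjusted p under 0.05, near the 7.29% of all entries; the other 8 lay between -0.17 (miR-129-5p) and 0.20 (miR-137-3p), and the median of the list was -0.03. miR-770-3p, over an exon of Meg3, an imprinted noncoding RNA, differed by -0.34 (p 0.00637), and miR-7667-5p by -0.58 (p 0.0054).

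miR-1843b-5p and miR-299a-5p completed the 4 entries without overlap among the 451 abundant ones. miR-1843b-5p, in an intron of Cop1, measured 132 to 161 CPM in knockout and 165 to 203 CPM in wild type, a difference of -0.30 (SE 0.12, limma p 0.0154, adjusted p 0.474). miR-299a-5p, of the imprinted chromosome 12 cluster, measured 5.57 to 7.80 CPM in knockout and 8.85 to 13.3 CPM in wild type, from 10 to 36 reads per library. Its difference was -0.62 (SE 0.24, p 0.014), against 0.17 in normoxia (interaction -0.79, SE 0.24, limma p 0.00286, adjusted p 0.577). miR-377-5p of the same cluster differed by -0.57 (p 0.034) and miR-495-5p, with at most 6 reads, by 0.96 (p 0.045). They were the 3 of 54 Mirg cluster members with an unadjusted p under 0.05, which is near the 7.29% of all entries; the 37 with a mean log2 level of at least 3 had a median of 0.01, with 21 above and 16 below 0.

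Leaving out knockout replicate 5 changed the count of calls. That library lay with wild-type replicates 2 to 5 on the first principal component (4.32), so leaving it out favours a separation of the groups. The calls are therefore a description and no independent support. Over all libraries left out in turn, the count ran from 0 to 22. With the 9 libraries other than knockout replicate 5, 22 entries had an adjusted p under 0.05 in limma (1.49%), all lower in knockout. The fit of all 10 gave 0. Besides miR-7a-5p (-0.44, adjusted p 0.0142) and miR-218-5p (-0.42, 0.0344) they were miR-690 (-0.75, 0.00167), let-7f-2-3p (-0.99, 0.00461), miR-542-3p (-0.76), miR-3473e (-0.82), miR-6538 (-0.84), miR-3535 (-0.61), miR-466i-5p (-0.67), miR-6937-5p (-0.77), miR-2137 (-0.77), miR-7087-3p (-0.82), miR-3473b (-0.71), miR-3473a (-0.62), miR-3470b (-0.64), miR-6236 (-0.87), miR-6240 (-0.62), miR-5130 (-0.97), miR-5099 (-0.75), miR-5126 (-0.83), miR-1195 (-0.56) and miR-3470a (-0.64). With the same 9 libraries centred on their medians, an alternative added after seeing the data, 22 entries were called as well, 9 higher and 13 lower; the 13 were among the 22 above. miR-7a-5p was not among them (-0.29, adjusted p 0.214), whereas miR-17-5p (0.50, adjusted p 0.019), miR-20a-5p (0.49) and miR-362-5p (0.70) were. The fit of all 10 libraries made none of these calls, and which entries passed without knockout replicate 5 depended on the scaling; the 13 shared calls kept their sign.

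The levels of the 22 entries are given by library as a description: they were chosen as lower in knockout replicates 1 to 4, which fixes the low values there and bears on the place of replicate 5. Their median log2 level against the wild-type mean was -0.91, -0.85, -0.68 and -0.55 in knockout replicates 1 to 4 and 0.33 in replicate 5. In wild-type replicates 1 to 5 it was -0.56, -0.09, 0.42, -0.14 and 0.31. Wild-type replicate 1, the deepest library, had all 22 below the wild-type mean.

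**Figure D4:**
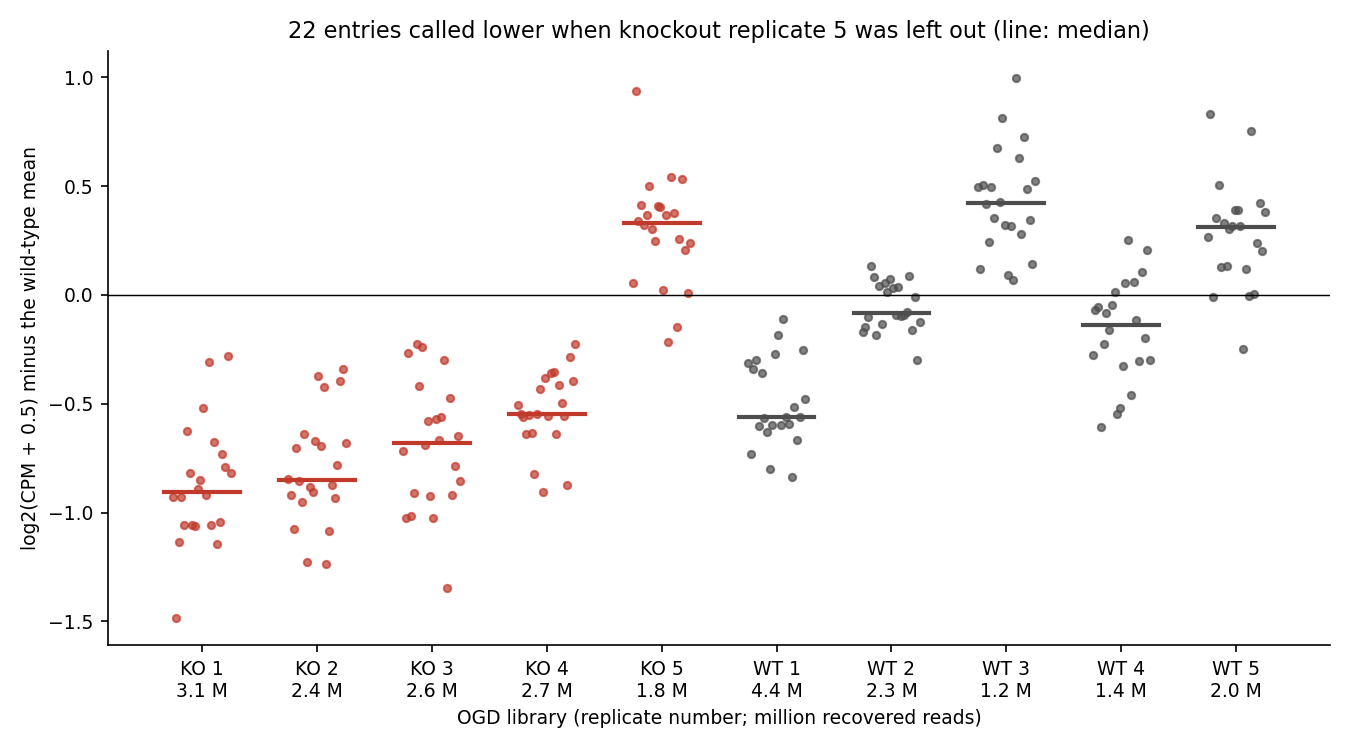
Level of each of the 22 entries minus its wild-type mean (y axis, log2(CPM + 0.5)) in the 10 OGD libraries (x axis, with total reads), with the median as a line; the entries were chosen as lower in knockout replicates 1 to 4. The median is 0.33 in knockout replicate 5 and -0.56 in wild-type replicate 1.

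The 22 are set beside their normoxic levels here; the comparisons of genotype and of treatment share the OGD libraries. In wild type, 16 of the 22 were above every normoxic library in every OGD library, against 13.4% of all entries, and in knockout 19 of 22, against 15.3%. These shares are not matched for level. All 22 had a mean log2 level of at least 3, while 583 of all 1481 entries had at most 3 reads in each OGD library. The share among the abundant entries alone is not given. Of the 22, miR-218-5p was among those that overlapped, at 5121 to 7277 CPM after OGD and 3404 to 6787 CPM in normoxic wild type. miR-3535, over an exon of Ncl, which encodes nucleolin, measured 1867 to 4658 CPM in knockout and 2821 to 5098 CPM in wild type after OGD, against 74.3 to 293 and 89.5 to 602 CPM in normoxia. The 602 CPM came from normoxic wild-type replicate 5, and the other 4 reached 109 CPM. miR-690 likewise measured 425 CPM in that library and 21.8 to 36.3 CPM in the other 4. Of 10 OGD-responsive miRNAs named earlier on these data, 3 had an unadjusted p under 0.05, against 7.29% of all entries, and all 3 were lower in knockout: miR-3535 (-0.41), miR-12188-5p (-0.57) and miR-6240 (-0.42). Without wild-type replicate 3 the difference of miR-12188-5p was -0.36 (p 0.0948) and that of miR-6240 -0.26 (p 0.143); without knockout replicate 2 the latter was -0.25 (p 0.163). Their list was chosen on these libraries and is no independent evidence of a direction; the median of its 9 abundant members was -0.25.

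The entries lower under the authors' scaling are set beside the rest by name and GC content, as a description. These shares were not tested and not repeated under other scalings. The entries are not independent of each other, as miR-3473a, miR-3473b and miR-3473e share most of their bases. Of the 41 abundant entries lower at an unadjusted p under 0.05, 18 (43.9%) carry a name without a 5p or 3p arm, as do 15 of the 22 (68.2%), against 2 of the 18 higher entries (11.1%) and 44 of all 451 (9.76%). The median GC content of the mature sequence was 56.8% in the 38 lower entries with a sequence, 41.7% in 15 higher ones and 47.8% in 389 of the 451. The sequences of 5 of the 22 entries are printed as examples of GC-rich and GC-poor ones.
miR-5130: cUGGAGCGcgcgggcgaggcaggc
miR-6240: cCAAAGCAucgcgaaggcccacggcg
miR-3473a: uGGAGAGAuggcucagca
miR-690: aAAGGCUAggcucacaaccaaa
let-7f-2-3p: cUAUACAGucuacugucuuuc
miR-5130 has 83.3% G and C and lies over an exon of Kctd12, and let-7f-2-3p has 38.1% and lies in an intron of Huwe1. Whether such entries hold fragments of other RNAs was not tested.

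No entry had an adjusted p under 0.05 for the interaction of genotype and treatment in limma over 20 libraries (0 of 1481, 0%), and 74 had an unadjusted p under 0.05 (5%). The knockout difference in normoxia alone gave 0 calls as well (0%). Effects seen after OGD are therefore not shown to be particular to it. miR-21a-3p, the passenger strand of the injury-induced miR-21a, had a difference of 1.15 after OGD (limma p 0.0115), but from 0 to 7 reads per OGD library. Its groups did not overlap, at 0.798 to 2.43 CPM in knockout and 0 to 0.737 CPM in wild type. The interaction was 1.69 (SE 0.49, limma p 0.00206, adjusted p 0.577). The guide miR-21a-5p, at 2341 to 3132 CPM in knockout and 2260 to 2824 CPM in wild type, differed by 0.05 (limma p 0.582).

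The hypoxia-induced miR-210-3p overlapped between the genotypes. It measured 119, 72.2, 184, 70.1 and 106 CPM in knockout and 128, 127, 127, 111 and 47.2 CPM in wild type, a difference of 0.03 (SE 0.23, 95% interval -0.44 to 0.49, limma p 0.912). All 10 OGD values except wild-type replicate 5 exceeded the highest normoxic value, 47.7 CPM. miR-210-5p, at 0.502 to 6.38 CPM, differed by -0.09 (p 0.852). Of 7 stress and injury miRNAs in the table, 1, miR-21a-3p, had an unadjusted p under 0.05, against 7.29% of all entries; miR-34a-5p, a target of p53, differed by -0.04 and miR-34c-5p by 0.29 (p 0.088).

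The summed levels of marker lists of other cells overlapped between the groups. The vessel list, led by miR-126a-3p of endothelium, summed to 307 to 408 CPM in knockout and 343 to 424 CPM in wild type, and 1 of its 6 members had an unadjusted p under 0.05, miR-145a-3p, with at most 3 reads. The oligodendrocyte list summed to 54.6 to 75.1 and 51.8 to 71.3 CPM, with 0 of 4 members at an unadjusted p under 0.05. The list of blood and microglia, of which miR-146a-5p made up most, summed to 167 to 245 and 154 to 218 CPM (0 of 8), and that of muscle and liver to 91.3 to 116 and 71.8 to 103 CPM (0 of 4). The levels within these lists were uneven. miR-126a-3p averaged 294 CPM in knockout and 322 CPM in wild type, miR-146a-5p 182 in both, miR-122-5p 50.2 and 46.4, miR-338-5p 49.1 in both, miR-143-3p 45.3 and 42.9, and miR-1a-3p 39.9 and 31.9 CPM, while miR-223-3p, miR-451a, miR-142a-3p, miR-219a-5p and miR-133a-3p averaged under 2 CPM in each group. The abundant let-7 guides, in contrast, were nearly level between genotypes: let-7i-5p, let-7f-5p, let-7g-5p and let-7c-5p differed by -0.03, -0.01, 0.01 and 0.02, and 0 of 10 in the list had an unadjusted p under 0.05. miR-99a-5p, the second most abundant entry, differed by -0.17 (p 0.0718).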

How the data were processed

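Per the labels' protocols, TRIzol-extracted RNA was cleared of DNA, and size-selected libraries were built with NEBNext small RNA reagents. The build was mm10, per the submitters' processing notes; the aligner, the miRBase release and the treatment of reads that fit several miRNAs are not given in the sources used here. The values the authors deposited are a score, not log2 CPM: each was found to be a whole number of reads times a library factor, raised to a power (0.118 here), with the extremes of each group of 5 then limited at the quantiles 0.16 and 0.84. Undoing this gave whole reads (within 0.05 of a whole number, and here within 0.001) for 100% of values, 74.4% (within 0.05) if the extremes were left as deposited, and the same reads for each library in all its tables (59070 comparisons, 0 differing). No pair of replicates matched within sampling noise (lowest chi-square per degree of freedom 16.5, 20 pairs within groups).

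CPM used the authors' library factors. limma 3.58.1 (R 4.3.3; lmFit, eBayes with trend) was run on log2(CPM + 0.5), which understates changes of rare entries, with genotype as the 1 term over 10 libraries, or with the interaction over 20. All p-values are two-sided and were adjusted by Benjamini-Hochberg over the 1481 entries, with a threshold of 0.05. The fit was tested on simulated data, and the outcome is not given here. Named are the 7 ciRS-7 network miRNAs, the 10 lowest p in each direction at a mean log2 level of at least 3, miR-210, the 5 most abundant entries, and of each other list up to 4 of the highest mean and any with an unadjusted p under 0.05; others were named after their values were seen. The entries and lists were chosen with earlier results of these data known. Mature sequences are RefSeq's (GRCm38.p6) and host genes GENCODE M21's.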

Additional observations from a re-analysis of the deposited data

Results flagged for a closer look

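In 9 of 150 groups of 5 screened among the named miRNAs, 1 library lay farther from its neighbour than Dixon's 95% critical value (0.71) allows, where chance gives about 7.5. Knockout replicate 3 was the highest of its group for miR-17-5p (2234 CPM, next 1776), miR-20a-5p (4076 CPM, next 2931) and miR-132-3p (1657 CPM, next 1077). Knockout replicate 5 was the highest for miR-6538 (113 CPM, next 61.5) and miR-7667-5p (26.2 CPM, next 21.05). Knockout replicate 4 was the lowest for let-7i-5p (39750 CPM, next 52389). In the wild type, replicate 4 was the highest for miR-132-5p (464 CPM, next 325), replicate 1 the highest for miR-9-5p (307756 CPM, next 259749) and replicate 5 the lowest for miR-210-3p (47.2 CPM, next 111).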

How the results depend on the processing

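The count of 0 calls held under the total-read, median-centred and quantile scalings, pseudocounts of 0.1 and 2 CPM, the filter on low levels, limma voom and thinning to 1160582 reads. It was 72 on the deposited values, whose extremes had been pulled in (0 with the extremes restored on that scale), and 22 when knockout replicate 5 was left out, without or with median centring; over all libraries left out in turn it ran from 0 to 22. For miR-7a-5p the difference ran from -0.46 to -0.33 with 1 library left out, passed the threshold on the deposited values (-0.70 on their own scale, adjusted p 0.00718) and was -0.35 with log2 total reads as a covariate, added after seeing the data, which left 0 calls. The interaction count ran from 0 to 1; the 1, without wild-type OGD replicate 1, was miR-6364, with at most 3 reads. Across genotypes after OGD, same-numbered libraries did not all deviate together (correlations 0.56, -0.004, 0.006, 0.002 and 0.28), and a replicate block gave 0 calls for the genotype difference, with 33 higher and 94 lower at an unadjusted p under 0.05. Between normoxia and OGD within a genotype, 8 of 10 same-numbered pairs correlated above 0.1 (range -0.21 to 0.66) and 7 of 10 OGD libraries correlated best with their own number; the labels do not say that a number marks a shared culture. The interaction with the number within a genotype as a replicate block gave 0 calls; its p was 0.0628 for miR-7a-5p (adjusted p 0.865), 0.0436 for miR-7b-5p and 0.0328 for miR-20a-5p. Among 1835 refits of the other named miRNAs, 118 had another sign than the fit of all 10 libraries, all at a p of 0.138 or more, for 30 miRNAs that had an unadjusted p above 0.05 to begin with. Depth limits entries of a few reads, such as miR-21a-3p and miR-495-5p.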
